A study of Mus musculus with 12 samples.

Results

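Genes of vitamin A uptake and retinoid metabolism were followed in mouse jejunum after bile flow to the gut had been stopped by ligation of the common bile duct. The members were Isx, Bco1, Scarb1, Rbp2, Lrat, Dgat1, Rdh7, Aldh1a1, Rarb and Cyp26b1, which are 10 of the 19938 genes that the array's probe table names. The list was drawn up by name, with earlier results of these data known. Each gene had exactly 1 probe set that carries its symbol alone, so all 10 were measured. Wild-type inbred male mice of the strains A/J and C57BL/6J (B6), 8 weeks old, gave the jejunum whose total RNA was put on the arrays. In each strain the common bile duct was ligated (CBDL) or left in place untouched in a sham operation, and tissue was taken on day 7. There were 12 arrays, 3 for each operation in each strain, and groups are named by both (A/J sham, for example). Whole jejunum was sampled, so every value is an average over epithelium, immune cells, muscle and connective tissue. Values are log2 signals, on which a difference of 1 is a doubling, and levels of different genes are not compared because each probe set has its own brightness.

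Vitamin A and its plant precursors, the carotenoids, dissolve in fat and reach the enterocyte in micelles that bile acids form. The scavenger receptor Scarb1 takes up carotenoids, the oxygenase Bco1 splits beta-carotene into retinal, the binding protein Rbp2 holds retinal and retinol in the cell, and Lrat, with a part played by Dgat1, makes the retinyl esters that leave in chylomicrons. Retinoic acid made from the remainder acts through nuclear receptors, and in the gut it turns on the homeobox repressor Isx, which lowers Scarb1 and Bco1 and so closes a feedback loop. A low vitamin A supply is known to lower Isx and raise Scarb1 and Bco1.

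The promoters of Bco1 and Rarb are shown because they hold letters of the kind that homeobox proteins and retinoid receptors are known to bind. Of the 10 members, 8 have an entry in the RefSeq promoter table for the GRCm38.p6 build, and the 250 bases before each start site were searched on both strands. The paired homeodomain site TAATNNNATTA, of the kind a homeobox protein binds, occurs in 0.463% of 32841 promoters. The direct repeat with a 1-base gap (DR1), searched as GGTCANNGGTCA with GTTCA allowed for either GGTCA, occurs in 0.317%. The direct repeat with a 5-base gap (DR5), searched as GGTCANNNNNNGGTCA with the same exchange allowed, occurs in 0.21%. Among the members these letters were found in the windows of Bco1, which holds the homeodomain site and a DR1, the arrangement bound by retinoid X receptors with partners such as the PPARs, and of Rarb, which holds a DR5, the arrangement bound by retinoic acid receptors. The Bco1 stretch lies at chr8:117095748-117095840 on the plus strand and the Rarb stretch at chr14:16575493-16575548 on the minus strand, with the matches in capitals.
Bco1: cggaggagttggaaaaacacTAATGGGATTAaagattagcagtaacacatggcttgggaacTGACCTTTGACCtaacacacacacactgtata
Rarb: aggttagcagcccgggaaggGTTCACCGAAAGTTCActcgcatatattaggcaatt
A match describes letters in these windows and shows neither binding nor control in these mice.

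Of the members, Isx alone passed the test after CBDL, and it did so in the average over both strains. None of the 10 passed an adjusted p of 0.05 in A/J mice, where 0.818% of all 35556 probe sets passed, and 2 had an unadjusted p under 0.05. None passed in B6 mice, where 0.0534% of all probe sets passed, and 1 had an unadjusted p under 0.05. The study's own list of differentially expressed genes, at a false discovery rate under 0.05, is longer in each strain. Of the members it holds Isx, as higher after CBDL in A/J. In the fit used here, 1 member passed averaged over both strains, Isx, against 1.74% of all probe sets. The response to CBDL did not pass for any member as a difference between the strains, where 0.0366% of all probe sets passed, and 0 members had an unadjusted p under 0.05. The share of all probe sets at an unadjusted p under 0.05 was not counted. Unadjusted counts, here and below, therefore have no background beside them and only describe the genes. The median log2 difference over the members was 0.09 in A/J and 0.07 in B6, beside -0.01 and -0.0025 over all probe sets. All adjusted p-values are from limma with Benjamini-Hochberg adjustment over all probe sets, and they measure the spread between these arrays only, since the labels do not say that each array is a separate animal.

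**Figure D1:**
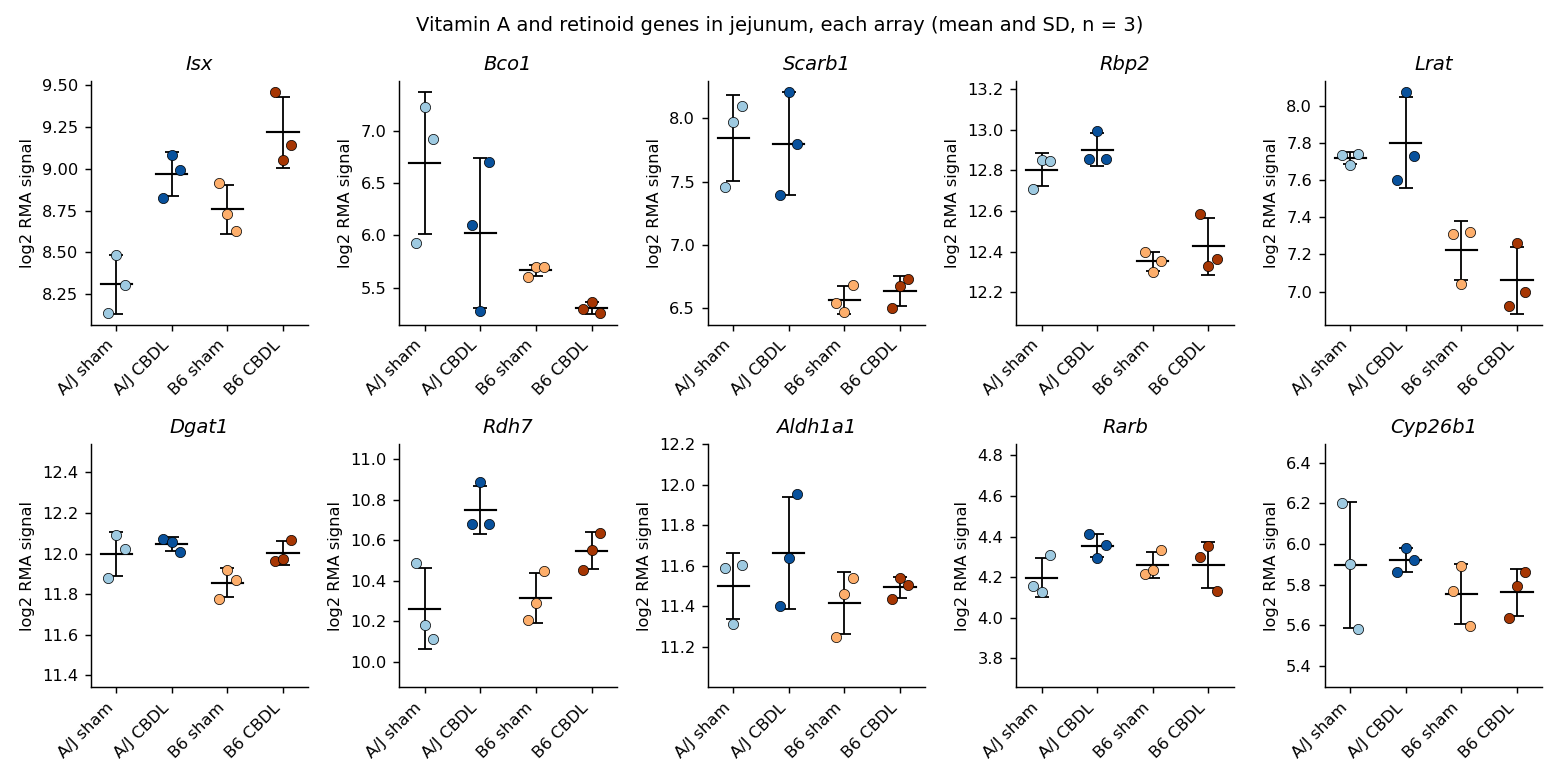
Log2 RMA signal (vertical axes, a separate scale for each gene) of the 10 members on each array, by group on the horizontal axes. Points are arrays, and lines with bars are the mean and SD of 3 arrays. Isx lies higher in CBDL than in sham in both strains, and Scarb1, Rbp2 and Lrat lie higher in A/J than in B6.

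Isx, the retinoic acid-induced repressor, was higher after CBDL. Its log2 signal was 8.14, 8.49 and 8.30 on the A/J sham arrays and 8.83, 9.08 and 8.99 on the A/J CBDL arrays. In B6 mice it was 8.91, 8.73 and 8.63 after sham and 9.46, 9.05 and 9.14 after CBDL. Every CBDL array lay above every sham array of its strain. Averaged over the strains, the log2 signal of Isx rose by 0.56 (standard error 0.10, 95% interval 0.35 to 0.77, adjusted p = 0.0170), which is 1.47-fold. The difference was 0.66 in A/J (standard error 0.14, adjusted p = 0.0570) and 0.46 in B6 (standard error 0.14, adjusted p = 0.343), and neither passed. The study's own list holds Isx for A/J, as given above. The A/J response minus the B6 response was 0.20, with an interval from -0.23 to 0.62, so a difference between strains was not shown. In bulk tissue more cells of a type and more RNA per cell cannot be told apart, and this holds for every gene described here.

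The averaged Isx call held when any array was left out, with adjusted p-values from 0.0257 to 0.0489. The A/J difference passed in some settings, among them the fit on probe sets with exactly 1 gene symbol (adjusted p = 0.0180) and the fit without B6 CBDL replicate 1 (adjusted p = 0.0450). With the mean of 19 hepatocyte markers as a covariate, the averaged value was larger, 0.88, but its standard error was 0.27 and its call ended (adjusted p = 0.9997). These markers moved with the operation, at 5.01 to 5.46 in A/J sham and 8.36 to 8.76 in A/J CBDL. Across all probe sets the covariate widened standard errors about 2.96 times averaged and 1.94 times between sham strains. A call against sham or between sham strains that ended with it, here and below, does not tell groups and markers apart. A/J sham arrays also lay below B6 sham arrays for Isx, with a difference of -0.45 (standard error 0.14, adjusted p = 0.148), which did not pass.

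Scarb1, the receptor that Isx is known to repress, did not move with CBDL beyond its error. Its log2 signal was 7.46, 7.97 and 8.10 in A/J sham and 7.40, 8.21 and 7.80 in A/J CBDL. In B6 it was 6.54, 6.47 and 6.68 after sham and 6.50, 6.67 and 6.73 after CBDL. Sham and CBDL arrays overlapped in each strain, whereas every A/J array lay above every B6 array. The averaged CBDL difference was 0.01, with an interval from -0.31 to 0.33. The strains differed by 1.28 in sham mice (standard error 0.21, adjusted p = 0.00842, 2.43-fold) and by 1.17 after CBDL (standard error 0.21, adjusted p = 0.0162, 2.25-fold), both higher in A/J. The sham call held without any single array, up to an adjusted p of 0.0480, and ended with the hepatocyte covariate (1.63, adjusted p = 0.387). The CBDL call ended without A/J CBDL replicate 3, B6 CBDL replicate 1 or B6 CBDL replicate 2, with an adjusted p of up to 0.0744 and a difference of 0.96 to 1.37 over the arrays left out.

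Bco1, the other known target of Isx, varied far more among A/J arrays than among B6 arrays. Its log2 signal was 5.93, 7.23 and 6.92 in A/J sham and 6.10, 5.28 and 6.70 in A/J CBDL, with an SD of 0.68 and 0.72 over 3 arrays. In B6 it was 5.60, 5.69 and 5.69 after sham and 5.30, 5.36 and 5.26 after CBDL, with an SD of 0.05 in each group. The A/J groups overlapped, and in B6 each CBDL array lay below each sham array. The CBDL difference was -0.67 in A/J (standard error 0.35, adjusted p = 0.429), -0.36 in B6 (adjusted p = 0.922) and -0.51 averaged (standard error 0.25, adjusted p = 0.392), and none passed. The fit shares a single spread over the 4 groups. Fitted to the B6 arrays alone, the B6 difference of -0.36 had a standard error of 0.08 in place of 0.35 and did not pass either (adjusted p = 0.275). The A/J sham arrays lay above the B6 sham arrays, by 1.03 (standard error 0.35, adjusted p = 0.192). That difference passed with array weights, at 1.39 (adjusted p = 0.0198).

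Markers of smooth muscle and stroma moved with some of these arrays. The mean log2 signal of 9 such genes was 7.48, 9.08 and 8.56 in A/J sham, where replicate 1 was also the lowest for Bco1, and 8.97, 8.09 and 8.36 in A/J CBDL. It was 8.45, 9.0 and 8.61 in B6 sham and 7.66, 7.58 and 7.92 in B6 CBDL, the group lowest for Bco1. Other arrays did not follow. A/J CBDL replicate 1, highest of its group for the markers, had Bco1 at 6.10, below the 6.70 of replicate 3. The B6 sham arrays had Bco1 at only 5.60 to 5.69. Of the 9 genes none passed in any comparison, with 5 at an unadjusted p under 0.05 in B6. Their part in the Bco1 values was not tested. A/J sham replicate 1 stood somewhat apart over all probe sets, with a mean correlation of 0.970 to the rest, where the other arrays had 0.979 or more, and without it the Bco1 difference after CBDL in A/J was -1.05 (adjusted p = 0.166).

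**Figure D2:**
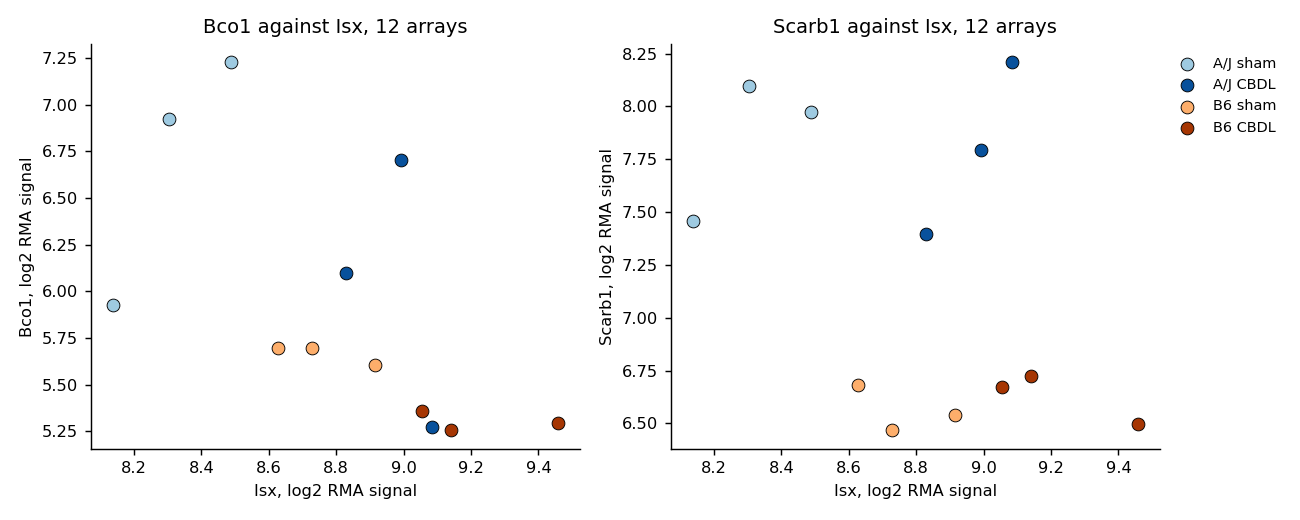
Log2 RMA signal of Bco1 (left) and Scarb1 (right) on the vertical axes against that of Isx on the horizontal axes, 1 point per array, coloured by group. In the Bco1 panel B6 arrays form a narrow band from 5.26 to 5.69, and in the Scarb1 panel all A/J arrays lie above all B6 arrays.

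Of the genes that hold and esterify retinol, Rbp2 and Lrat differed between the strains, and no CBDL difference passed. Rbp2 had a log2 signal of 12.71, 12.85 and 12.85 in A/J sham, 12.86, 13.00 and 12.85 in A/J CBDL, 12.40, 12.30 and 12.35 in B6 sham, and 12.59, 12.33 and 12.36 in B6 CBDL. Every A/J array lay above every B6 array. A/J CBDL arrays lay just above A/J sham arrays, in the closest pair by less than the rounding, and the B6 groups overlapped. The averaged CBDL difference was 0.09, with an interval from -0.06 to 0.23. Rbp2 was higher in A/J by 0.45 in sham mice (standard error 0.09, adjusted p = 0.0352) and by 0.48 after CBDL (adjusted p = 0.0301). The sham call ended in 9 of 12 fits that left out an array, all except those without A/J sham replicate 1, A/J CBDL replicate 2 or B6 CBDL replicate 1, with an adjusted p of up to 0.140. The CBDL call ended in 6 of 12, those without any A/J CBDL array, B6 sham replicate 1, or B6 CBDL replicate 2 or 3, with an adjusted p of up to 0.141. Both also ended with only the arrays compared (adjusted p = 0.137 and 0.104), with replicate number as a block (0.0892 and 0.0799) and with the hepatocyte covariate. Quantile normalization ended the sham call too (0.0716).

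Lrat, the main enzyme of retinyl ester formation, had a log2 signal of 7.74, 7.68 and 7.74 in A/J sham and 7.60, 8.07 and 7.73 in A/J CBDL. In B6 it was 7.31, 7.04 and 7.32 after sham and 6.92, 7.26 and 7.00 after CBDL. The strains did not overlap, and sham and CBDL arrays did in each strain. The averaged CBDL difference was -0.04, with an interval from -0.26 to 0.17. Lrat was higher in A/J by 0.74 after CBDL (standard error 0.14, adjusted p = 0.0221), and the difference of 0.50 in sham mice did not pass (adjusted p = 0.117). The CBDL call ended without A/J CBDL replicate 2 or 3 or without B6 CBDL replicate 1 or 3, with an adjusted p of up to 0.0962. It also ended with only the arrays compared (0.0878) and with replicate number as a block (0.0535). The response to CBDL in A/J minus that in B6 was 0.25 for Lrat, with an interval from -0.18 to 0.68.

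Dgat1, which joins acyl chains to glycerides and, as a minor activity, to retinol, had signals of 11.88, 12.09 and 12.02 in A/J sham and 12.07, 12.06 and 12.01 in A/J CBDL. In B6 they were 11.78, 11.92 and 11.87 after sham and 11.96, 11.98 and 12.07 after CBDL. The groups overlapped in A/J, and the B6 CBDL arrays lay just above the B6 sham arrays. The averaged difference of 0.10 (interval -0.03 to 0.23, adjusted p = 0.513) did not pass.

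Across the list, 2 of 10 members passed between sham strains, beside 1.87% of all probe sets, and 3 passed between CBDL strains, beside 1.78%. All of these were higher in A/J. The list was chosen with earlier results of these data known, so the shares describe it and do not test it. The 3 members with every A/J array above every B6 array within each operation were Scarb1, Rbp2 and Lrat, a pattern held by 2.12% of all probe sets. These 3 genes also varied together over the 12 arrays, with Pearson's r of 0.92 between Scarb1 and Rbp2, 0.92 between Scarb1 and Lrat and 0.84 between Rbp2 and Lrat. The 12 points share 2 strains, and the strain difference is part of each r.

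**Figure D3:**
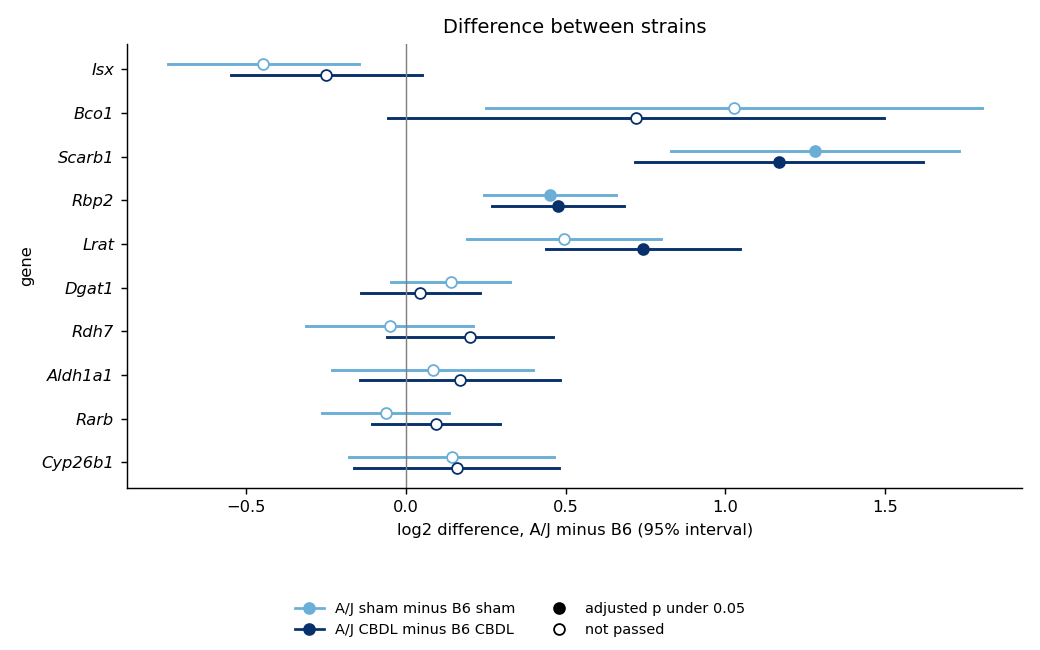
Log2 difference, A/J minus B6, for each member (rows) in sham and in CBDL mice, with 95% intervals. Filled points passed an adjusted p of 0.05. Scarb1, Rbp2, Lrat and Bco1 lie to the right, from 0.45 to 1.28, Bco1 with the widest intervals and no filled point, and Isx lies to the left.

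Of the enzymes that oxidize retinol, Rdh7, a short-chain dehydrogenase, had the second largest increase among the members after CBDL. Its log2 signal was 10.49, 10.18 and 10.12 in A/J sham and 10.68, 10.89 and 10.68 in A/J CBDL. In B6 it was 10.21, 10.29 and 10.45 after sham and 10.45, 10.55 and 10.64 after CBDL. The CBDL arrays lay above the sham arrays in each strain, in B6 by a margin smaller than the rounding. The averaged difference was 0.36 (standard error 0.08, interval 0.18 to 0.54), which missed the threshold (adjusted p = 0.0625). It passed in 4 other settings, among them the fit on probe sets with exactly 1 gene symbol (adjusted p = 0.0249), and without A/J sham replicate 1, where it was 0.42 (adjusted p = 0.0260). With the hepatocyte covariate it was 0.08 (standard error 0.23). Close copies of Rdh7 exist in the mouse genome, and how far its probe set separates them was not analysed here. Isx and Rdh7 were the 2 members with every CBDL array above every sham array in both strains, a pattern held by 1.96% of all probe sets.

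Aldh1a1, which turns retinal into retinoic acid, had signals of 11.59, 11.31 and 11.60 in A/J sham and 11.40, 11.64 and 11.95 in A/J CBDL. In B6 they were 11.25, 11.46 and 11.54 after sham and 11.44, 11.54 and 11.51 after CBDL. All 4 groups overlapped. The averaged difference of 0.12 (interval -0.10 to 0.34, adjusted p = 0.655) did not pass.

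Rarb and Cyp26b1 report on retinoic acid more directly, as a receptor gene that retinoic acid induces and as an enzyme that degrades it. Rarb was dim, below every array's median of 5.36 to 5.51, at 4.16, 4.13 and 4.31 in A/J sham, 4.41, 4.30 and 4.36 in A/J CBDL, 4.22, 4.23 and 4.33 in B6 sham, and 4.30, 4.35 and 4.13 in B6 CBDL. Cyp26b1 was at 6.20, 5.90 and 5.58 in A/J sham, 5.86, 5.98 and 5.92 in A/J CBDL, 5.77, 5.89 and 5.60 in B6 sham, and 5.63, 5.79 and 5.86 in B6 CBDL. Sham and CBDL arrays overlapped for both genes in both strains. The averaged differences were 0.08 for Rarb (interval -0.06 to 0.22) and 0.02 for Cyp26b1 (interval -0.21 to 0.24). At signals as dim as that of Rarb, a small change in its transcript might not be detectable.

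**Figure D4:**
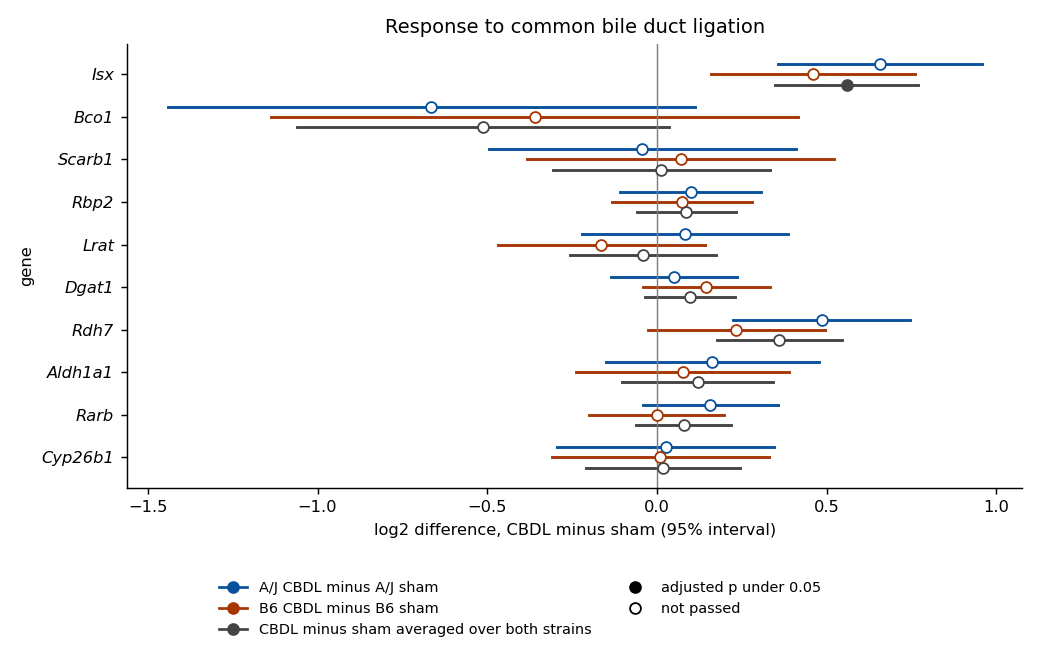
Log2 difference, CBDL minus sham, for each member (rows) in A/J, in B6 and averaged over both, with 95% intervals. The filled point, Isx averaged at 0.56, passed an adjusted p of 0.05. Bco1 has the widest intervals.

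The rest of the pathway was described from lists of other genes. Of 19 genes of retinoid uptake, ester formation and transport, 16 were measured, and in A/J mice 3 rose and 1 fell after CBDL, in B6 none passed, and the averaged response had the same counts as A/J. At an unadjusted p under 0.05 there were 7 of the 16 in A/J, 5 in B6 and 11 averaged. The gene that fell was Rbp7, a cellular retinol-binding protein, at 6.26, 5.96 and 5.95 in A/J sham, 4.68, 5.24 and 5.08 in A/J CBDL, 6.63, 6.31 and 6.38 in B6 sham, and 5.53, 5.68 and 5.54 in B6 CBDL. The CBDL arrays lay below the sham arrays in each strain without overlap. Rbp7 fell by 0.96 on the log2 scale averaged over the strains (standard error 0.11, adjusted p = 0.00199) and by 1.05 in A/J (adjusted p = 0.0101), while the B6 difference of -0.86 did not pass (adjusted p = 0.0852). Both calls held without any single array, with adjusted p-values of up to 0.00891 and 0.0453. Both ended with the hepatocyte covariate, and the A/J call also in a fit to the A/J arrays alone. The study's own list holds Rbp7 as lower after CBDL in both strains.

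The genes of that list that rose are made in quantity by liver. Rbp4, the carrier of retinol in blood, was at 6.26, 6.13 and 6.18 in A/J sham and 8.62, 9.75 and 9.13 in A/J CBDL, but at 6.69, 7.40 and 8.83 in B6 sham and 8.55, 9.10 and 8.87 in B6 CBDL. It rose by 2.97 in A/J (standard error 0.44, adjusted p = 0.0122) and by 2.09 averaged (adjusted p = 0.00982). Its partner in blood, Ttr, rose by 3.32 in A/J (standard error 0.52, adjusted p = 0.0144) and by 1.85 averaged (adjusted p = 0.0321), and the carboxylesterase Ces1d rose by 2.50 in A/J (adjusted p = 0.0123) and by 1.55 averaged (adjusted p = 0.0165). Leaving out A/J sham replicate 2 or A/J CBDL replicate 2 ended the A/J calls of Rbp4 (adjusted p of up to 0.0656), Ces1d (up to 0.0682) and Ttr, whose call also ended without A/J sham replicate 1 or A/J CBDL replicate 3 (up to 0.0745). The averaged call of Ces1d ended without A/J sham replicate 2 (adjusted p = 0.0541), and that of Ttr in 8 of 12 such fits, all except those without A/J sham replicate 3, A/J CBDL replicate 1, B6 sham replicate 3 or B6 CBDL replicate 1 (up to 0.0874).

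Markers of hepatocytes moved in the same arrays. Of 19 measured, 15 rose in A/J, none passed in B6 and 16 rose averaged. In B6 all 19 differences were positive, with a median of 1.17, and 13 were at an unadjusted p under 0.05. The study's own list holds Hpx, Mat1a, Bhmt, Tat and Fga as higher after CBDL in both strains. The mean log2 signal of the markers was 5.16, 5.01 and 5.46 in A/J sham, 8.36, 8.76 and 8.53 in A/J CBDL, 6.24, 7.03 and 8.28 in B6 sham, and 8.41, 8.67 and 8.55 in B6 CBDL. The 6 with the smallest adjusted p in A/J were Fgg, Hpx, Fgb, Ahsg, Tat and Alb, all genes of plasma proteins but Tat, an amino acid-degrading enzyme, and they rose by 3.64 to 5.94 on the log2 scale. With the mean of these markers as a covariate, the A/J value was -0.66 for Rbp4 and -0.75 for Ttr, and neither passed. B6 sham replicate 3, at 8.28, came close to the CBDL arrays, and without it the Isx difference in B6 was 0.40 (adjusted p = 0.586). Their part in these changes was not tested beyond that covariate, which moved along with the operation.

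Other markers described the tissue. The mean log2 signal of 13 enterocyte markers was 12.2 to 12.4 on every array. After CBDL only Lct, the lactase of the brush border, passed, and fell by 0.47 averaged (adjusted p = 0.0303). That call ended in 8 of 12 fits that left out an array (adjusted p of up to 0.0870). It held without A/J sham replicate 1 or 3, A/J CBDL replicate 2 or B6 CBDL replicate 2. At an unadjusted p under 0.05 there were 4 of the 13 in A/J, 1 in B6 and 3 averaged. Of 6 proximal markers none passed in any comparison (up to 3 at an unadjusted p under 0.05). Of 4 distal markers Ceacam20 alone passed after CBDL, and fell by 0.75 averaged (adjusted p = 0.0148). The other three had positive averaged differences, 0.77 for the bile acid transporter Slc10a2 (adjusted p = 0.0622), 0.60 for the bile acid-binding protein Fabp6 and 0.21 for Gata6, so that the list median was 0.41 and all 4 were at an unadjusted p under 0.05. In A/J, Slc10a2 had 1.15 and Fabp6 1.12, and 3 of the 4 were at an unadjusted p under 0.05. The study's own list holds Slc10a2 as higher after CBDL in A/J. Of 8 measured exocrine pancreas markers none passed (up to 1 at an unadjusted p under 0.05), and their mean stayed at 4.53 to 4.91, below each array's median. The study's own list holds Amy2a5, a pancreas marker that was not measured here, as higher after CBDL in A/J.

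**Figure D5:**
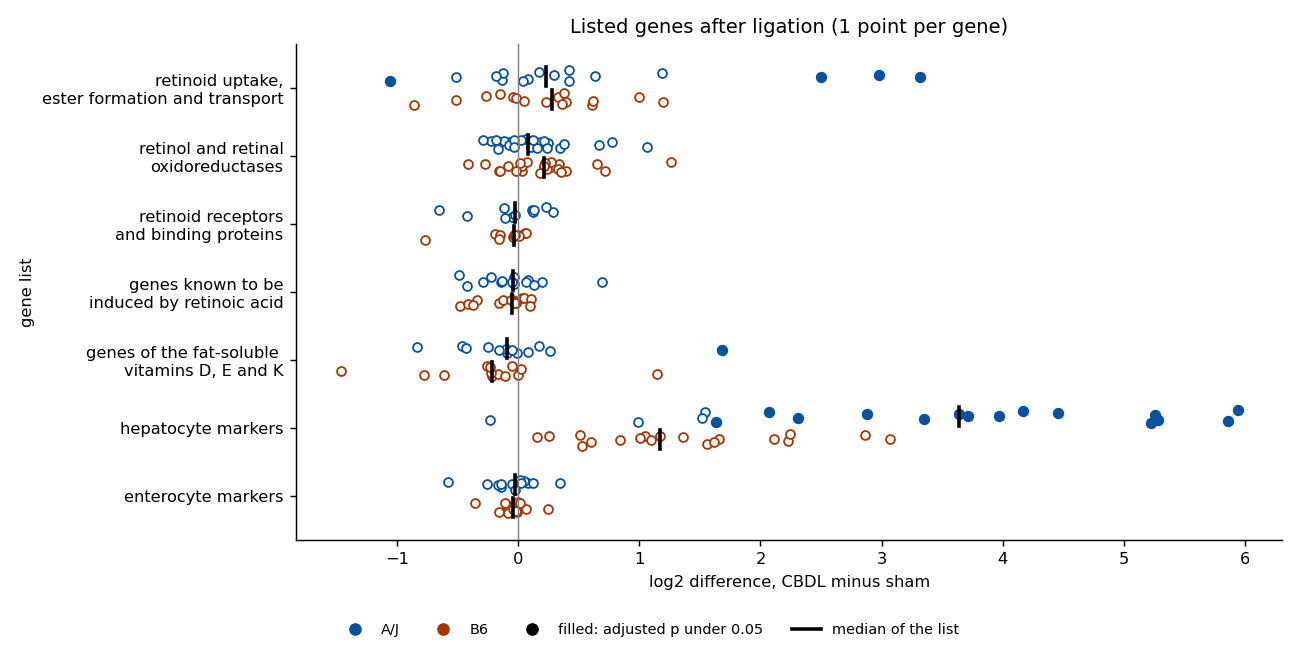
Log2 difference, CBDL minus sham, of every measured gene (1 point each, horizontal axis) in 5 pathway lists and 2 marker lists (rows), in A/J and in B6. Filled points passed an adjusted p of 0.05 and black ticks are list medians. The hepatocyte markers have medians of 3.64 in A/J and 1.17 in B6, while the genes induced by retinoic acid lie around 0.

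Of the genes that retinoic acid is known to induce, 14 were measured and none passed in any of the 6 comparisons. The study's own list holds Rarres2, the gene of chemerin, as higher after CBDL in A/J. At an unadjusted p under 0.05 there were 4 in A/J, 2 in B6 and 3 averaged. The median averaged difference was -0.04, beside -0.01 over all probe sets. Cyp26a1, the gene most tightly tied to retinoic acid in many tissues, was dim, at 3.69 to 4.42 over the 12 arrays, and its averaged difference was -0.02 (interval -0.30 to 0.25). Dhrs3, which turns retinal back to retinol and is induced by retinoic acid, was at 9.34, 9.61 and 9.72 in A/J sham and 9.36, 9.20 and 9.25 in A/J CBDL, and between 9.18 and 9.32 on the B6 arrays. Its averaged difference was -0.13 (interval -0.29 to 0.04). Stra6, the cell-surface receptor for the Rbp4 complex, had an averaged difference of 0.02 (interval -0.13 to 0.17).

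Among 24 measured retinol and retinal oxidoreductases none passed in either strain, with 5 at an unadjusted p under 0.05 in A/J and 7 in B6. Averaged over the strains 2 rose, Rdh16 and Akr1b8, and none fell. In the study's own list Akr1b8 is higher after CBDL in A/J and Rdh16 in B6. It also holds Akr1b7, an oxidoreductase that was not measured here, as higher in A/J. Rdh16, a retinol dehydrogenase close to Rdh7, was at 7.36, 7.32 and 7.40 in A/J sham, 8.49, 8.09 and 7.48 in A/J CBDL, 5.71, 5.57 and 6.02 in B6 sham, and 7.37, 6.88 and 6.84 in B6 CBDL. CBDL arrays lay above sham arrays in each strain. Its averaged difference was 0.96 (standard error 0.16, adjusted p = 0.0162), a call that ended without A/J sham replicate 2 (adjusted p = 0.0515) and with the hepatocyte covariate, where the difference was 0.71. Akr1b8, an aldo-keto reductase, rose by 0.89 from a dim level (adjusted p = 0.0387), a call that ended in 8 of 12 fits that left out an array (adjusted p of up to 0.0965) and held without A/J sham replicate 1, A/J CBDL replicate 1 or B6 CBDL replicate 1 or 3. The Akr1b8 call also ended with replicate number as a block (0.0682) and with the hepatocyte covariate.

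Between sham strains 4 oxidoreductases were higher in A/J and none lower. Rdh16 differed by 1.59 (adjusted p = 0.00581). The other three, named after their values were seen, were the alcohol dehydrogenases Adh4, by 1.59 (adjusted p = 0.00582), and Adh1, by 0.44 (adjusted p = 0.0246), and the dehydrogenase Dhrs9, by 1.72 (adjusted p = 0.0174). The call of Dhrs9 ended without A/J sham replicate 2 or B6 sham replicate 2 or 3 (adjusted p of up to 0.0672) and that of Adh1 without A/J sham replicate 1 or 2 or any B6 sham array (up to 0.0946). With only the sham arrays the calls of Adh4 (adjusted p = 0.0525), Dhrs9 (0.0534) and Adh1 (0.126) ended, that of Adh1 also with quantile normalization (0.0520). With the hepatocyte covariate all 4 sham calls ended, with adjusted p-values from 0.283 for Adh4 to 0.907 for Dhrs9, and differences of 0.56 to 2.05. After CBDL, Adh4 alone passed, higher in A/J by 1.42 (adjusted p = 0.0127), a call that ended without A/J CBDL replicate 3 or B6 CBDL replicate 2 (up to 0.0615).

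Bco2, the carotenoid oxygenase that cuts beside the site of Bco1, ran the other way between strains. It was at 8.17, 8.43 and 8.98 in A/J sham and 8.76, 8.43 and 8.51 in A/J CBDL, but at 10.05, 9.58 and 10.01 in B6 sham and 9.93, 9.94 and 9.71 in B6 CBDL. Every A/J array lay below every B6 array. Bco2 was lower in A/J, with a difference of -1.35 in sham mice (standard error 0.20, adjusted p = 0.00582) and -1.30 after CBDL (adjusted p = 0.00707), and both calls held without any single array. The sham call ended with only the sham arrays (adjusted p = 0.0743) and with the hepatocyte covariate, where the difference was -1.25 (adjusted p = 0.778). Its averaged CBDL difference was 0.01, with an interval from -0.30 to 0.32. Over all probe sets 206 passed as higher and 459 as lower in A/J between sham strains, and 200 and 434 between CBDL strains. Probe sequences were not set against the A/J genome, so a mismatch was not checked for Bco2 or any other strain difference. Of the 16 genes of uptake and transport, Ttr was the other that passed between sham strains, lower in A/J (difference -2.77, adjusted p = 0.0201), a call that ended without A/J sham replicate 1 or 2 or B6 sham replicate 2 or 3 (up to 0.0865). It also ended with only the sham arrays (adjusted p = 0.110) and with the hepatocyte covariate, where the difference was -0.36 (adjusted p = 0.9997). In the same comparison 6 of the 19 hepatocyte markers were lower in A/J and none higher, 18 had a negative difference and their median was -1.70. After CBDL the other was the carboxylesterase Ces1g, named after its value was seen, higher in A/J by 1.59 (adjusted p = 0.0379), a call that ended without A/J sham replicate 3, A/J CBDL replicate 2 or 3, B6 sham replicate 1 or any B6 CBDL array (up to 0.129). The Ces1g call also ended with only the CBDL arrays, with replicate number as a block (0.0850) and with the hepatocyte covariate. Cd36, a fatty acid transporter that also takes up carotenoids, was at 10.31, 10.48 and 10.65 in A/J sham, 11.20, 10.94 and 10.55 in A/J CBDL, 9.58, 9.96 and 10.01 in B6 sham, and 10.29, 10.13 and 10.32 in B6 CBDL, and its averaged difference of 0.41 did not pass (adjusted p = 0.142).

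Of 11 measured retinoid receptors and binding proteins 1 fell averaged, Ppard, a fatty acid receptor that also responds to retinoic acid in some settings, by 0.71 (standard error 0.15, adjusted p = 0.0475). That call held only without A/J CBDL replicate 2 or B6 CBDL replicate 2 among the 12 fits that left out an array, with an adjusted p of up to 0.123 in the others. It also ended with each array's median subtracted (0.0549), with replicate number as a block (0.0826) and with the hepatocyte covariate. Among 13 measured genes of the fat-soluble vitamins D, E and K, Ttpa, the vitamin E transfer protein known best from liver, rose by 1.69 in A/J (adjusted p = 0.0350) and by 1.41 averaged (adjusted p = 0.0112). Its A/J call ended without A/J sham replicate 1 or 2, B6 sham replicate 1 or 2 or B6 CBDL replicate 2 or 3 (adjusted p of up to 0.133) and with only the A/J arrays (0.157). Both calls ended with the hepatocyte covariate, where the differences were 0.45 in A/J and 0.55 averaged. No other gene of that list passed for CBDL against sham. Of the 13, 4 had an unadjusted p under 0.05 in A/J mice, 3 in B6 and 5 averaged. The list's median averaged difference was -0.15, and 3 of the 13 averaged differences were positive. S100g and Npc1l1, named after their values were seen, had lower group means after CBDL in both strains. The A/J mean of S100g went from 7.26 to 6.43, with overlapping arrays, and the B6 mean from 6.85 to 6.08. For Npc1l1 these means went from 11.82 to 11.36 and from 11.85 to 11.24. The study's own list holds Ttpa as higher after CBDL in both strains, Cyp4f14 as lower in A/J and Abca1 as lower in B6. It also holds Gc, a gene of this list that was not measured here, as higher in A/J. Between CBDL strains Cyp4f14, named after its value was seen, alone passed, lower in A/J. Its difference was -0.69 to -0.66 over the arrays left out (limma adjusted p from 0.00206 to 0.0205), and the call held in every alternative.

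The probe sets whose signals ran most like Isx over the 12 arrays were those of Myo5c, with Pearson's r of 0.962, Tet3 (0.940), Coro2a (0.932), Srrm1 (0.924) and Qsox1 (0.924). Those most like Bco1 were Psap (0.920), Grk5 (0.915), Atp9a (0.914), Cldn3 (0.913) and Ddx23 (0.907). These were picked as the highest of all probe sets with 1 symbol, so the values describe the pick. Isx and Bco1 themselves had an r of -0.60 over the same arrays, which share strain and operation.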

How the data were processed

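Total RNA from jejunum was hybridized to 12 Affymetrix arrays. The deposited table holds log2 signals. Per the labels the authors computed them by RMA, using Affymetrix Expression Console, while the study's methods name GCRMA. For versions and genome build the sources used here give nothing. RMA sets all arrays to a common distribution, so a shift shared by most genes would not be seen. The deposited values were used without further normalization. Of 35556 probe sets, 21789 have 1 gene symbol in the platform table, 1621 several and 12146 none.

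Group means were estimated from the 12 arrays jointly by limma (version 3.58.1, R version 4.3.3), using moderated (empirical Bayes) variances and Benjamini-Hochberg adjustment over all probe sets. A probe set passed at an adjusted p under 0.05. CBDL was compared with sham in each strain and averaged, A/J with B6 in each operation, and the responses with each other (interaction). The pipeline was tested on simulated data. Intervals are unadjusted 95% intervals. Array data give no read depth, and 3 arrays per group limit the precision. No 2 arrays held identical values.

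The 10 members and the 11 gene and marker lists (145 other genes, 132 measured) were chosen with earlier results of these data known. Named genes were the members, list genes that passed after CBDL or in the interaction (up to 6 a list by adjusted p) and Rbp4, Ttr, Rbp7, Cyp26a1, Dhrs3, Rdh16, Cd36, Bco2 and Stra6. Another gene of that rule is not reported here. Alternatives were a fit to the compared arrays only, no dim probe sets, only probe sets with 1 symbol, quantile normalization, median subtraction, a trended robust prior, array weights, a replicate block, a hepatocyte covariate and leaving out each array. Promoter sequences are from RefSeq.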

Additional observations from a re-analysis of the deposited data

Results flagged for a closer look

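Rarres2, the gene of chemerin, which retinoid treatment is known to induce, stood out because its arrays moved in opposite directions in the 2 strains. Its log2 signal was 6.64, 7.17 and 7.03 in A/J sham and 7.29, 7.83 and 7.80 in A/J CBDL, so that each CBDL array lay above each sham array. In B6 it was 7.50, 7.59 and 7.66 after sham and 7.24, 7.26 and 7.22 after CBDL, so that each CBDL array lay below each sham array. The A/J response minus the B6 response was 1.04 on the log2 scale. In limma's interaction test the adjusted p was 0.367, with a range of 0.153 to 0.9999 over the alternatives, so the difference did not pass.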

How the results depend on the processing

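The number of members that passed after CBDL in A/J was 0, and became 1 without the 30% dimmest probe sets, 2 with only probe sets of exactly 1 symbol, 1 with a trended robust prior and 2 with array weights. Averaged over the strains it was 1, and became 2 under each of those 4 settings and 0 with the hepatocyte covariate. Between sham strains it was 2, and became 1 with only the arrays compared, 1 with quantile normalization, 0 with the covariate and 3 with array weights, where Bco1 joined. Between CBDL strains it was 3, and became 1 with only the arrays compared and 2 with the covariate, where Rbp2 dropped out. In B6 and in the interaction it was 0 under every alternative run. Leaving out each array gave 0 to 1 members in A/J, 1 to 2 averaged, 1 to 2 between sham strains and 0 to 3 between CBDL strains, the 0 without A/J CBDL replicate 3.

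With the replicate block the number was 1 between sham strains and 1 between CBDL strains, and Isx averaged kept its call (adjusted p = 0.0447). Whether the replicate numbers pair the arrays was not tested. The 18 correlations between the deviations of same-numbered arrays ran from -0.31 to 0.36. No such values for differently numbered arrays were set beside them, so the range does not decide it.

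The hepatocyte covariate ended every call after CBDL and between sham strains of a member or a named gene of the other lists, the hepatocyte markers themselves not being refitted. With it, standard errors across all probe sets were about 2.97 times wider in A/J, 2.96 averaged and 1.94 between sham strains. The sign turned for Rbp4, to -0.66 in A/J and -0.48 averaged, and for Ttr, to -0.75 and -1.02. Beyond these 4 results, 85 values that passed nowhere changed sign, 51 of them when an array was left out, and outside the covariate none was larger than 0.16. Subtracting medians or quantile normalization moved the median of all probe sets by at most 0.07 in any comparison. Each member has a single probe set, so the alternative of another probe set could not be run. Over arrays left out, the number of all probe sets that passed was lowest at 90 in A/J when sham replicate 2 was dropped and highest at 605 when sham replicate 3 was dropped (291 with all arrays), and in B6 lowest at 2 without CBDL replicate 2 and highest at 67 without sham replicate 3 (19 with all). Dim signals, such as those of Rarb and Cyp26a1, limit what can be seen, and probe sequences were not set against the A/J genome.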
